A study of Homo sapiens with 22 samples.

Results

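Transcripts of 10 lipid genes tied to the peroxisome proliferator-activated receptors (PPARs) were followed in cultured acute myeloid leukaemia cells. The genes were picked by symbol from the 28063 symbols in each library, and all 10 were present: the receptors PPARG and PPARD, and FABP4, FABP5, LPL, ANGPTL4, PLIN2, CPT1A, ACADVL and PDK4. All 10 passed the filter on low counts that left 16794 genes for testing, but FABP4 passed it only through the phorbol ester group. The 22 libraries came from the lines MOLM-13, MV-4-11 and THP-1, which carry KMT2A fusions, in 11 groups of 2. Each line was given the solvent DMSO or 1 µM BRM014, an inhibitor of the SWI/SNF chromatin remodelling ATPases SMARCA4 and SMARCA2, for 24 h or 72 h. THP-1 cells also received the macrophage-inducing phorbol ester PMA at 10 nM for 48 h with 24 h of rest, or 3 µM of DB2313, which blocks the myeloid regulator PU.1, for 72 h. All groups were grown in the same serum-containing medium. The DB2313 libraries were registered apart from all others, without DMSO libraries of their own. Whether they were made together with the rest is not given, so a difference between experiments cannot be told apart from DB2313. One DMSO group served both times of a line, the time its cells spent in culture is not given, and nothing says that the 2 libraries of a group were separate cultures, so that the p-values rest on a spread that may be only technical.

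PPARs are nuclear receptors that bind fatty acids and their derivatives, pair with a retinoid X receptor (RXR) and switch on genes for fatty acid uptake, storage and oxidation. PPARG is best known as the driver of fat cell formation, and in the monocyte and macrophage lineage it takes part in lipid handling. PPARD is expressed widely, and PLIN2, ANGPTL4, PDK4 and CPT1A are among the textbook targets that several PPARs share.

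The 10 genes lay apart in the genome except for the neighbours FABP4 and FABP5. On GRCh38 (GENCODE v29), PPARG spans chromosome 3, 12287368 to 12434356, on the plus strand. PPARD spans chromosome 6, 35342558 to 35428191. PLIN2 spans chromosome 9, 19108375 to 19149290, on the minus strand, and ANGPTL4 chromosome 19, 8363289 to 8374373, on the plus strand. CPT1A lies on chromosome 11, 68754620 to 68844410, ACADVL on chromosome 17, 7217125 to 7225273, and PDK4 on chromosome 7, 95583499 to 95596491. The places of FABP5, FABP4 and LPL are given with their values. Counts are given per gene symbol. Exons of ACADVL share 85 bases with DLG4 on the opposite strand, and the strand setting is not given.

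RefSeq (GRCh38.p14) promoter windows of 300 bases, 250 before and 50 after a start, were searched for 7 of the 10 genes, with 13 starts. FABP4, FABP5 and LPL were left out of this search, so that nothing is said of their promoters. The windows of PPARG, ANGPTL4 and PLIN2 are shown because these genes had large rises with BRM014 in at least 1 line. Capitals mark exact matches on either strand to the nuclear receptor site AGGTCA, the PU.1 core GAGGAAG or the AP-1 site TGANTCA, where N is any base. The sequences run 5′ to 3′ along the gene.
PPARG chr3:12287118-12287417 plus: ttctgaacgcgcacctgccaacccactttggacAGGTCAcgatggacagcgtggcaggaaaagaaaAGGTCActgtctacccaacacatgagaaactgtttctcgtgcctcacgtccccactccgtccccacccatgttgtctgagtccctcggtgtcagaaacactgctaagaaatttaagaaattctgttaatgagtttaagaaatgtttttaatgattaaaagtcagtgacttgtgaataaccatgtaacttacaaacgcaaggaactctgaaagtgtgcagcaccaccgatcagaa
ANGPTL4 chr19:8363905-8364204 plus: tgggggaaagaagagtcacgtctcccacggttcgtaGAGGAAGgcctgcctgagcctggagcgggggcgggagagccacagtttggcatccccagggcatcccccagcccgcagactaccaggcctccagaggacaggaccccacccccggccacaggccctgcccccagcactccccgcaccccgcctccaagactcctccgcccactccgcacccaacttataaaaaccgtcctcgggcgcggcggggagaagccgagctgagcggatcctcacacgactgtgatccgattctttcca
PLIN2 chr9:19127443-19127742 minus: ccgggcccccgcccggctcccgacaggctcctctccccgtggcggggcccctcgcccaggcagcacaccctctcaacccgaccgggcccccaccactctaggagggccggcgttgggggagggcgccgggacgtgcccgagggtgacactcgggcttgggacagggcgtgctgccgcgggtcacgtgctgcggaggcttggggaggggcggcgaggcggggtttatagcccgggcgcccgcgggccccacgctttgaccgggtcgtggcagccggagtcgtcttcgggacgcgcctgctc
The PPARG window held AGGTCA at positions 34 and 67, counted from 1 at its 5′ end, and the ANGPTL4 window held GAGGAAG at position 37. The PLIN2 window held none of these letters. Among the 13 windows searched, AGGTCA was found in 3 of the 6 of PPARG, at the starts counted as 1, 2 and 3. GAGGAAG was found in 1 and TGANTCA in 1, an ACADVL window. The windows of PPARG starts 2 and 3 overlap and hold the same site, at positions 237 and 227, and the window shown is the only one with 2 matches. Over all 35116 RefSeq windows the shares were 13.8%, 13.6% and 7.71%. The full direct repeat AGGTCANAGGTCA, the form that PPAR and RXR pairs bind, was in none of the 13 and in 0.0228% of all windows. Each AGGTCA inside such a repeat also counts as a single site. A match is a description of these letters and shows no binding.

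PPARG rose in 8 of 8 comparisons with DMSO within a line, and FABP5 fell in the 6 with BRM014, while the other genes split by line or agent. In MOLM-13, 4 of the 10 genes rose and 2 fell after 24 h of BRM014, against 22.7% and 23.5% of all genes tested, and again 4 rose and 2 fell after 72 h, against 30.3% and 29.4%. In MV-4-11, 1 rose and 4 fell after 24 h (23.6% and 22.4% of all genes), and 5 rose and 3 fell after 72 h (28.4% and 26.1%). In THP-1, 5 rose and 2 fell after 24 h (25.9% and 24.1%), and 6 rose and 3 fell after 72 h (30.9% and 28.0%). With PMA, 8 rose and 1 fell (18.9% and 17.1%). FABP4 is among the 8 and had to differ, since it entered the test only through the PMA libraries. With DB2313, 7 rose and 1 fell (35.9% and 29.5%). Rose and fell stand throughout for an adjusted p under 0.05 in edgeR's quasi-likelihood test. So large a part of all genes changed that a count of genes called says little about these 10, and the sizes below carry more.

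**Figure D1:**
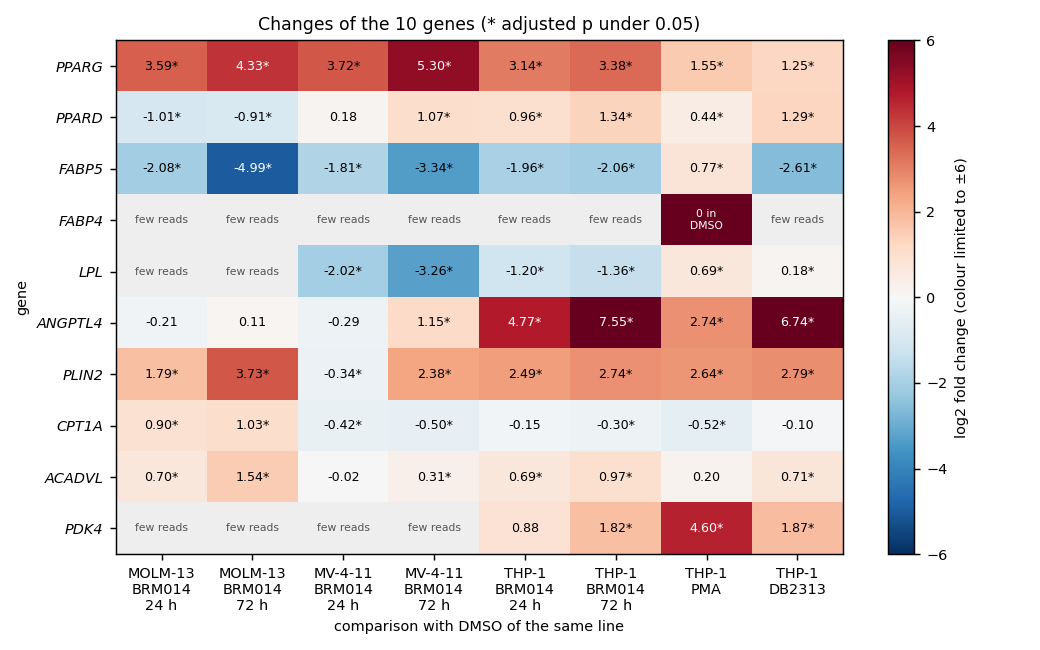
Log2 fold changes (edgeR) of the 10 genes (rows) in each treatment against DMSO of the same line (columns), with colour limited to ±6 and an asterisk for an adjusted p under 0.05. Cells marked as few reads had at most 10 reads in each group, and FABP4 had 0 reads in THP-1 DMSO. PPARG is positive in all 8 columns, from 1.25 to 5.30, and FABP5 is negative in all but the PMA column.

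As the mean of the 3 lines, 5 genes rose and 1 fell at 24 h of BRM014 (28.9% and 27.1% of all genes), and 5 rose and 2 fell at 72 h (34.9% and 30.4%). PPARG, ANGPTL4, PLIN2 and ACADVL rose at both times, CPT1A only in the 24 h fit and PPARD only in the 72 h fit. The rise of CPT1A at 24 h was small, a log2 change of 0.11 ± 0.04 (adjusted p = 0.0138, 0.000212 to 0.239 over the alternatives, of which 3 of 18 ended the call). Between 24 h and 72 h, 5 genes rose further (24.6% of all genes), namely PPARG, PPARD, ANGPTL4, PLIN2 and ACADVL, and FABP5 fell further (23.4%). These means hide differences: the 24 h effect differed between lines for 7 of the 10 genes, against 43.5% of all genes, and the 72 h effect for 8, against 52.9%. With DMSO alone 9 of the 10 differed between lines, against 78.9% of all genes, and for ANGPTL4 that difference (adjusted p = 0.00259) was lost without the second THP-1 DMSO library (0.107). For LPL, FABP4 and PDK4 the mean of lines rests on groups with 0 reads and is not given, though these genes enter the counts and medians of their lists below.

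Depth was even, with 15893489 to 21565666 reads in genes per library, so that 3 counts, the most that a count of 0 allows in a library, came to 0.139 to 0.189 CPM (counts scaled to a common total of reads in genes). The share of reads outside genes ranged from 12% to 19.2%. It was 12.4% to 13.2% in MOLM-13 with DMSO and 18.2% to 18.4% after 72 h, and 15.8% to 16.5% against 18.8% to 19.2% in THP-1. In MV-4-11 it was 13.8% to 14.3% with DMSO, 12% at 24 h and 13.1% to 13.5% at 72 h, and its part in the changes of the 10 genes was not tested. The PMA libraries differed most from each other, with 12.4% and 16.0% of reads outside genes, and the chi-square of their counts, divided by its degrees of freedom, was 32.7 against 3.23 to 11.4 for the other pairs. All 12 myeloid identity genes on a list, such as SPI1 and PTPRC, had reads in every group, except that MEIS1 was at 0 in THP-1 with BRM014 or PMA. Of these 12, 3 rose and 9 fell at 72 h of BRM014 over the lines (34.9% and 30.4% of all genes). Their summed level lay between 1157 and 11201 CPM over the libraries. Lymphoid markers summed to 2.57 to 87.7 CPM, and of 8 tested 0 rose and 4 fell at 72 h, against the same shares of all genes. CD79B and PAX5 are among the 4 and were at 0 in MOLM-13 at that time. With DB2313 5 of the 8 rose and 1 fell, and 7 of the 12 myeloid genes rose and 3 fell (35.9% and 29.5% of all genes). The lymphoid sum was then 72.9 to 87.7 CPM, mostly NKG7 (48 CPM), against 27.4 to 30.3 CPM in THP-1 with DMSO. Of the adipocyte markers, ADIPOQ and ADIG were at 0 in every group. The part of these markers in the changes of the 10 genes was not tested. In bulk RNA, fewer cells of a type and less RNA per cell cannot be told apart.

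PPARG was low in every DMSO library and climbed in each line with BRM014. In MOLM-13 it stood at 10.3 and 9.25 CPM with DMSO, at 132 and 124 CPM after 24 h and at 215 and 233 CPM after 72 h. In MV-4-11 it went from 3.50 and 3.02 CPM to 44.8 and 45.0 CPM and then to 132 and 135 CPM. In THP-1 it went from 15.4 and 15.3 CPM to 135 and 144 CPM and then to 170 and 169 CPM. No library with BRM014 overlapped the DMSO libraries of its line, and every 72 h library lay above those of 24 h. The log2 changes were 3.59 ± 0.11 and 4.33 ± 0.11 in MOLM-13, 3.72 ± 0.12 and 5.30 ± 0.12 in the MV-4-11 line, and 3.14 ± 0.10 and 3.38 ± 0.10 in THP-1, at 24 h and 72 h (the largest adjusted p was 6.2e-15). The rise was thus 12-fold to 13.1-fold in 2 lines and 8.80-fold in THP-1 at 24 h, and 39.4-fold, 20.1-fold and 10.4-fold in MV-4-11, MOLM-13 and THP-1 at 72 h. The size differed between the lines at 24 h (adjusted p = 0.011) and at 72 h (2.7e-08).

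PPARG also rose with the other agents in THP-1, but less. With PMA it reached 48.3 and 36.8 CPM, a log2 change of 1.55 ± 0.10 (adjusted p = 1.9e-10), and with DB2313 39.4 and 37.7 CPM, a change of 1.25 ± 0.10 (1.3e-09). Both groups lay above DMSO and below the BRM014 libraries without overlap, although these comparisons share the DMSO libraries. In order of level, PPARG was highest in MOLM-13 at 72 h (224 CPM, mean of 2), then THP-1 at 72 h (170), THP-1 at 24 h (140), MV-4-11 at 72 h (133) and MOLM-13 at 24 h (128). MV-4-11 at 24 h (44.9), PMA (42.6) and DB2313 (38.6) followed, of which the PMA group overlapped both others, and the DMSO groups were last (15.4, 9.75 and 3.26).

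PPARD, the second receptor, moved in opposite directions in different lines. In MOLM-13 it fell from 115 and 127 CPM with DMSO to 62.0 and 69.8 CPM after 24 h and 71.2 and 76.5 CPM after 72 h. In MV-4-11 it was at 33.3 and 31.8 CPM with DMSO, 39.8 and 37.9 CPM after 24 h and 68.6 and 73.5 CPM after 72 h. In THP-1 it rose from 48.2 and 39.6 CPM to 84.8 and 91.1 CPM and then to 116 and 120 CPM. MOLM-13, the line with the most PPARD under DMSO, was the line in which it fell, and after BRM014 its level lay near that of MV-4-11 at 72 h. The log2 changes at 24 h and 72 h were -1.01 ± 0.09 and -0.91 ± 0.09 in MOLM-13, 0.18 ± 0.10 (adjusted p = 0.127) and 1.07 ± 0.09 in the MV-4-11 line, and 0.96 ± 0.09 and 1.34 ± 0.09 in THP-1. The other changes had adjusted p-values of 3.1e-08 or less. The difference between lines had an adjusted p of 1.4e-09 at 24 h and 2.3e-11 at 72 h.

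In THP-1, PPARD was at 57.5 and 54.2 CPM with PMA, a log2 change of 0.44 ± 0.09 (adjusted p = 0.00088). It was at 113 CPM in both DB2313 libraries, a change of 1.29 ± 0.09 (1.7e-10). The PMA rise was not called when the fit held the THP-1 groups of that comparison alone (adjusted p = 0.0540, with 9.2e-05 to 0.0540 over the alternatives). Per kilobase of exon, on the scale of CPM per kilobase, the balance of both receptor transcripts turned over with BRM014. In MOLM-13 PPARG was at 2.15 ± 0.16 and PPARD at 27.2 ± 1.9 with DMSO (SD, n = 2), against 49.4 ± 2.9 and 16.6 ± 0.8 after 72 h. In MV-4-11 the levels per kilobase were 0.719 and 7.30 with DMSO and 29.4 and 15.9 after 72 h, and in THP-1 3.38 and 9.85 with DMSO and 37.4 and 26.5 after 72 h. With DB2313 PPARD was the higher (25.3 against 8.51 for PPARG). With PMA it was the higher over the union of exons (12.5 against 9.38) but the lower per kilobase of the longest transcript (14.8 against 21.0).

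**Figure D2:**
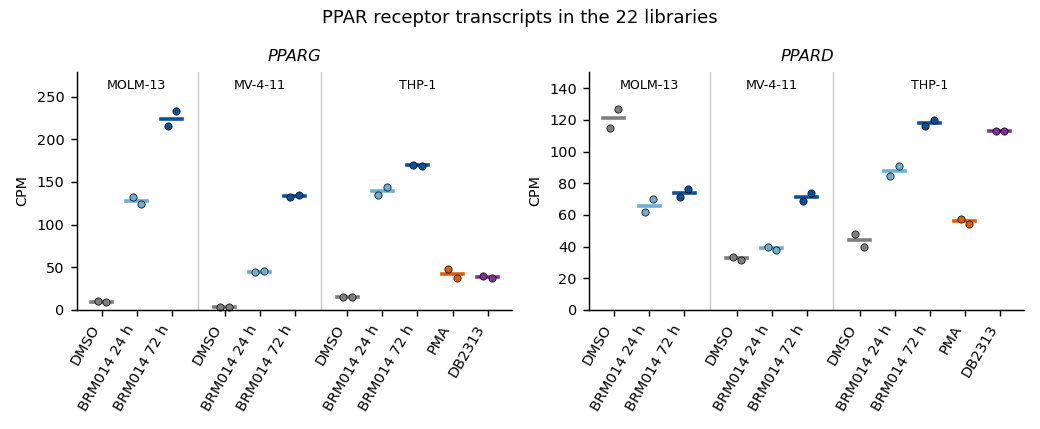
CPM of PPARG (left) and PPARD (right) in each of the 22 libraries, grouped by line and treatment. Points are libraries and bars the mean of 2. PPARG stood at 3.02 to 15.4 CPM in the DMSO libraries and at 44.8 to 233 CPM with BRM014, while PPARD fell in MOLM-13 and rose in THP-1.

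A list of 6 PPAR and RXR receptor genes includes PPARG and PPARD. Of the 5 tested, 4, PPARG and PPARD among them, rose and 0 fell at 72 h in the mean of lines (34.9% and 30.4% of all genes). At 24 h 2 rose and 1 fell (28.9% and 27.1%). With PMA 3 rose and 2 fell (18.9% and 17.1%), and with DB2313 4 rose and 0 fell (35.9% and 29.5%). The median log2 change at 72 h was 0.50, which is the value of PPARD itself, against 0.07 over all genes. PPARA, the receptor that governs fatty acid oxidation in liver, went from 10.8 to 49.5 CPM in MOLM-13, from 22.5 to 57.6 CPM in MV-4-11 and from 22.3 to 55.9 CPM in THP-1, as means of DMSO and 72 h. Its change over the lines was 1.52 ± 0.11 (adjusted p = 9.1e-11). With PMA PPARA fell, by 0.55 on the log2 scale (adjusted p = 0.0342 in edgeR). The means were 14.4 ± 6.81 CPM with PMA and 22.3 ± 3.62 CPM with DMSO (SD, n = 2). This call lies near the threshold, and PPARA was not put through the alternatives. RXRA, the RXR partner, changed by 0.50 ± 0.06 over the lines at 72 h. Of single lines at 72 h it was called only in MV-4-11 (1.23 ± 0.14, from 5.34 to 13.2 CPM). The changes were 0.10 ± 0.10 in MOLM-13 and 0.16 ± 0.09 in THP-1, where it stood at 207 CPM with DMSO and 145 CPM at 24 h. In THP-1 RXRA rose with PMA (0.66 ± 0.09) and DB2313 (0.645 ± 0.089), and RXRB fell with PMA (-1.62 ± 0.405). Of 15 coactivators and corepressors, 9 rose and 4 fell at both times, where 28.9% and 27.1% of all genes did at 24 h and 34.9% and 30.4% at 72 h. Their median was 0.69 at 72 h, or 0.68 with groups at 0 set to their bound, against 0.07 over all genes. The coactivator NCOA2 (1.55 ± 0.07) and the corepressor NCOR1 (0.81 ± 0.05) both rose. With PMA 4 rose and 3 fell (18.9% and 17.1% of all genes), and with DB2313 8 rose and 4 fell (35.9% and 29.5%).

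FABP5, a protein that carries fatty acids through the cytosol and can hand them to PPARD, fell in all 3 lines with BRM014. In MOLM-13 it dropped from 271 and 273 CPM with DMSO to 71.8 and 68.6 CPM after 24 h and to 9.59 and 9.90 CPM after 72 h. In MV-4-11 it went from 171 and 188 CPM to 54.6 and 52.8 CPM and then to 17.1 and 19.7 CPM. In THP-1 it went from 130 and 138 CPM to 35.4 and 35.8 CPM and then stayed at 34.8 and 33.3 CPM. The groups of a line did not overlap, and FABP5 ended lowest in the line where it began highest. It spans chromosome 8, 81280363 to 81284777. GENCODE names 13 pseudogenes after FABP5, of which 1 is in the files, with 29 reads in all, so FABP5 counts are uncertain where reads could go to such copies. Its log2 changes at 24 h were -2.08 ± 0.11 in MOLM-13, -1.81 ± 0.11 in MV-4-11 and -1.96 ± 0.12 in THP-1, and no difference between lines was called at that time (adjusted p = 0.352). At 72 h they were -4.99 ± 0.13, -3.34 ± 0.12 and -2.06 ± 0.12, which differed between lines (1.6e-10). The fall in MOLM-13 at 72 h was 31.9-fold. DB2313 also lowered FABP5, to 26.3 and 20.2 CPM (-2.61 ± 0.12, adjusted p = 3.0e-13), whereas PMA raised it to 194 and 236 CPM (0.77 ± 0.11, 1.0e-05).

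FABP4, the fatty acid binding protein of fat cells and macrophages and a classic PPARG target, was found with PMA and hardly elsewhere. It lies on chromosome 8, 81478419 to 81483263. It had 821 and 1031 reads in the PMA libraries, or 40 and 54.3 CPM. It had 0 reads in the 6 libraries of MOLM-13, the 6 of MV-4-11, and THP-1 with DMSO or 72 h of BRM014, 0 and 4 reads in THP-1 at 24 h, and 6 and 1 reads with DB2313. With PMA it was at least 566-fold higher than with DMSO, taking 3 counts over the DMSO group as the floor. Its call with PMA sets libraries with reads against libraries at 0 and supports nothing. The BRM014 libraries with the most PPARG, MOLM-13 at 72 h, had 0 reads of FABP4 in both, which allows up to 3 counts in each.

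Macrophage marker genes moved with PMA as well: of 15 on a list, 13 rose and 1 fell, against 18.9% and 17.1% of all genes. CD163, MRC1, C1QB and C1QC stood at 0.341 CPM or less outside PMA and entered the test only through it, so that the count gives no support. The 3 complement genes known from tissue macrophages, C1QA, C1QB and C1QC, were at 43.9, 2.32 and 45.9 CPM with PMA and at 0.627 CPM or less in all other groups. The summed level of the 15 was 2515 to 2526 CPM with DMSO, 8164 to 8168 CPM with PMA, 8190 to 8791 CPM with DB2313 and 7526 to 7698 CPM after 72 h of BRM014 in THP-1. CHI3L1 made up most of each of these sums, at 2064 CPM with DMSO, 4206 CPM with PMA, 7831 CPM with DB2313 and 6639 CPM with BRM014. With BRM014 at 72 h the list was split: 3 rose and 5 fell in MOLM-13 (30.3% and 29.4% of all genes). The numbers were 5 and 3 in MV-4-11 (28.4% and 26.1%), and 4 and 5 in THP-1 (30.9% and 28.0%). In MOLM-13 the sum went from 337 to 350 CPM with DMSO to 1796 to 1817 CPM at 72 h, and in MV-4-11 from 214 to 215 CPM to 821 to 838 CPM, while CD163, C1QB and C1QC stayed at 0 in both lines. The MOLM-13 sum at 72 h was mostly CD68 (1014 CPM) and CHI3L1 (788 CPM). SPP1 and GPNMB fell there from levels already low with DMSO, 0.67 to 0 CPM and 0.457 to 0.0779 CPM. The part of these markers in the changes of the lipid genes was not tested.

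Fatty acid uptake, binding and activation had 15 genes on a list, FABP4 and FABP5 among them. At 72 h in the mean of lines 6 rose and 6 fell (34.9% and 30.4% of all genes), and at 24 h 5 rose and 6 fell (28.9% and 27.1%). The median at 72 h was -0.28, or -0.36 with groups at 0 set to their bound, against 0.07 over all genes. CD36, the scavenger receptor that takes up fatty acids and oxidised lipoprotein and a known PPARG target, rose over the lines at 72 h (2.43 ± 0.21). It went from 2.67 to 15.7 CPM in MOLM-13, from 0.168 to 1.70 CPM in MV-4-11 and from 32.3 to 117 CPM in THP-1. PMA raised CD36 to 508 CPM (4.06 ± 0.17), and with DB2313 it fell to 14.0 CPM, by 1.27 on the log2 scale. ACSL1, which links fatty acids to coenzyme A, rose in every line at both times, from 138 to 771 CPM in MOLM-13, 44.3 to 184 CPM in MV-4-11 and 47.0 to 326 CPM in THP-1 at 72 h. With PMA 6 of the 15 rose and 1, the transporter SLC27A2, fell (18.9% and 17.1% of all genes), and with DB2313 4 rose and 5 fell (35.9% and 29.5%).

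LPL, the lipase that frees fatty acids from lipoprotein triglyceride, was nearly absent from one line and fell with BRM014 in the others. It spans chromosome 8, 19901717 to 19967259. MOLM-13 held 1 read of LPL in its 6 libraries. In MV-4-11 it went from 264 and 266 CPM with DMSO to 67.2 and 69.8 CPM after 24 h and 30.1 and 27.7 CPM after 72 h. In THP-1 it went from 209 and 198 CPM to 94.6 and 88.8 CPM and then to 84.8 and 82.9 CPM. In these 2 lines the treated and DMSO libraries stood well apart. The log2 changes were -2.02 ± 0.08 and -3.26 ± 0.08 in the MV-4-11 line, with -1.20 ± 0.07 and -1.36 ± 0.08 in THP-1, with adjusted p-values of 2.6e-10 or less. The test of the difference between lines (adjusted p = 1.7e-05 at 24 h and 4.1e-10 at 72 h) includes MOLM-13, where there was nearly nothing to lower. PMA raised LPL to 322 and 295 CPM (0.69 ± 0.07, adjusted p = 5.1e-07). With DB2313 it was at 238 and 248 CPM, and the small change of 0.18 ± 0.07 (adjusted p = 0.0361) was no longer called under 6 of 10 alternatives (0.00372 to 0.194).

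ANGPTL4, a secreted inhibitor of LPL and a target of all PPARs, was near its floor with DMSO and rose most in THP-1. THP-1 with DMSO had 0.125 and 0.0495 CPM, from 3 reads in all. After 24 h of BRM014 it had 2.61 and 2.46 CPM, and after 72 h 17.9 and 17.8 CPM. With DB2313 it had 10.5 and 9.77 CPM, and with PMA 0.439 and 0.685 CPM. None of these groups overlapped with DMSO. The ratios of CPM to DMSO were 30.5 (exact 95% counting interval 10.2 to 150) at 24 h, 215 (73.3 to 1046) at 72 h, 122 (41.4 to 593) with DB2313 and 6.72 (2.02 to 35.1) with PMA, and these intervals cover counting error only. In edgeR the 4 changes had adjusted p-values of 3.0e-08, 3.3e-12, 1.9e-11 and 0.00062, and without the first DMSO library the fitted log2 change at 72 h moved from 7.55 to 8.22, that at 24 h from 4.77 to 5.45, that with DB2313 from 6.74 to 7.41 and that with PMA from 2.74 to 3.41.

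In the other lines ANGPTL4 stayed at or under 1.04 CPM. In MOLM-13 it was at 0.533 and 0.378 CPM with DMSO, 0.372 and 0.486 CPM after 24 h and 0.642 and 0.479 CPM after 72 h, all overlapping, and neither change was called (adjusted p = 0.810 and 0.907). In MV-4-11 it was at 0.389 and 0.431 CPM with DMSO, 0.270 and 0.428 CPM after 24 h and 0.873 and 1.04 CPM after 72 h. The 72 h change of 1.15 ± 0.38 in MV-4-11 (adjusted p = 0.0137) was lost under 5 of 10 alternatives (0.00974 to 0.103). The BRM014 effect differed between lines at 24 h (3.4e-06) and 72 h (7.4e-09). PPARG was higher in MOLM-13 than in THP-1 at 72 h, 224 against 170 CPM, and ANGPTL4 was at 0.561 against 17.8 CPM.

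A list of 12 genes for LPL and its regulators, LPL and ANGPTL4 included, had 7 tested. Of these, 4 rose and 2 fell at 72 h in the mean of lines (34.9% and 30.4% of all genes). LPL was 1 of these 2, through a fit that rests on groups at 0. At 24 h 3 rose and 1 fell (28.9% and 27.1%). With PMA 5 rose and 1 fell (18.9% and 17.1%), and with DB2313 6 rose and 1 fell (35.9% and 29.5%). GPIHBP1 is among those that rose with each agent. It was at 0 CPM in THP-1 with DMSO, 0.278 CPM with PMA and 1.91 CPM with DB2313. Its calls set libraries with reads against libraries at 0 and support nothing. The median at 72 h was 0.57, against 0.07 over all genes. LMF1, a chaperone that LPL needs to fold, rose in each line at both times, with 1.68 ± 0.13 over the lines at 72 h. In THP-1, where LPL fell, LMF1 went from 2.21 to 11.2 CPM. APOC1, an apolipoprotein that restrains LPL, rose in THP-1 at 72 h (2.06 ± 0.23) and with PMA (2.11 ± 0.23), and its changes in MOLM-13 (-0.01 ± 0.24) and MV-4-11 (-0.35 ± 0.40) at 72 h were not called.

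**Figure D3:**
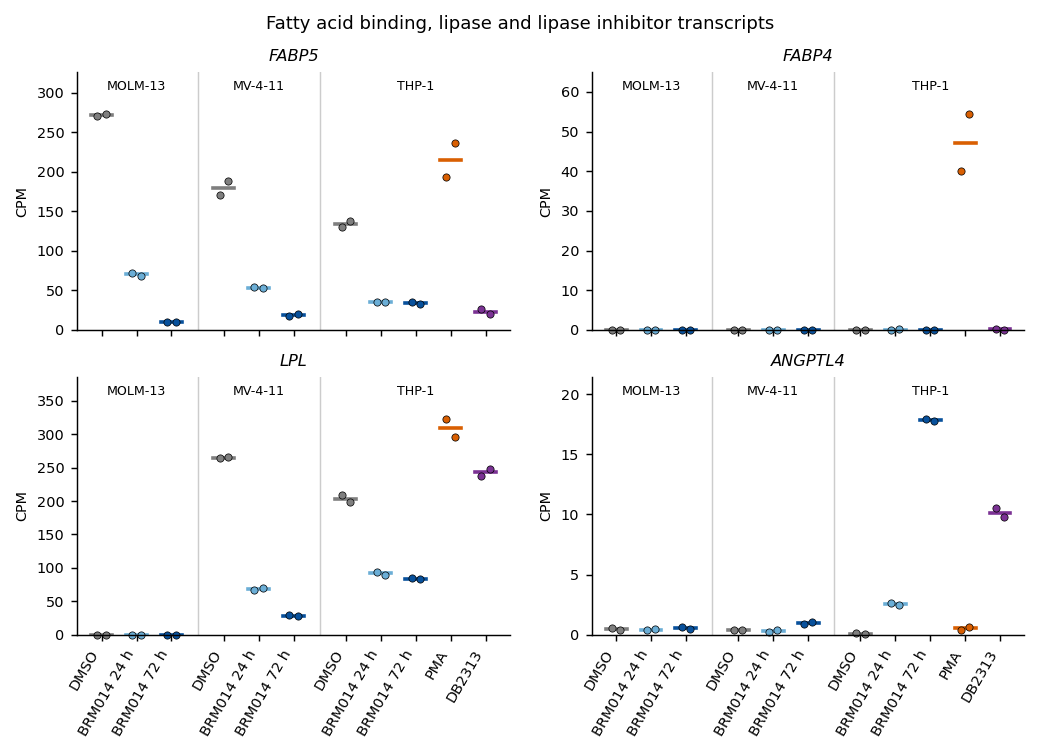
CPM of FABP5, FABP4, LPL and ANGPTL4 in each of the 22 libraries, with points for libraries and bars for the mean of 2. FABP5 falls with BRM014 in all 3 lines, FABP4 stands at 40 and 54.3 CPM with PMA, LPL is nearly absent from MOLM-13, and ANGPTL4 reaches 17.9 CPM in THP-1 after 72 h of BRM014.

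PLIN2 coats lipid droplets and is often read as a marker of stored lipid. It ended higher after 72 h of BRM014 in every line, but on different courses. In MOLM-13 it was at 15.5 and 18.6 CPM with DMSO, 68.1 and 61.0 CPM after 24 h and 255 and 261 CPM after 72 h. In MV-4-11 it was at 89.7 and 101 CPM with DMSO, 80.9 and 77.9 CPM after 24 h and 518 and 517 CPM after 72 h. In THP-1 it was at 43.0 and 45.1 CPM with DMSO, 259 and 252 CPM after 24 h and 316 and 309 CPM after 72 h. THP-1 had thus covered most of its rise by 24 h, whereas MV-4-11 stood slightly below DMSO at 24 h and above it at 72 h, with no overlap at either time. The log2 changes at 24 h and 72 h were 1.79 ± 0.10 and 3.73 ± 0.10 in MOLM-13, -0.34 ± 0.08 and 2.38 ± 0.09 in the MV-4-11 line, and 2.49 ± 0.09 and 2.74 ± 0.09 in THP-1. All 6 were called, with adjusted p-values of 0.0028 for MV-4-11 at 24 h and 8.3e-12 or less for the others. The 24 h fall in MV-4-11 was lost without the second DMSO library (adjusted p = 0.0804, with 3.5e-05 to 0.0804 over the alternatives). The lines differed at 24 h (3.6e-12) and at 72 h (9.6e-08).

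The other agents in THP-1 raised PLIN2 to levels like those with BRM014. It was at 261 and 256 CPM with PMA (2.64 ± 0.09, adjusted p = 1.1e-14) and at 333 and 308 CPM with DB2313 (2.79 ± 0.09, 2.2e-15). The DB2313 libraries overlapped those of BRM014 at 72 h, and PPARG in the same libraries was at 38.6 against 170 CPM.

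Of 19 tested genes among 21 for lipid droplets and triglyceride turnover, PLIN2 included, 9 rose and 3 fell at both times in the mean of lines. Over all genes 28.9% rose and 27.1% fell at 24 h, and 34.9% and 30.4% at 72 h. With PMA 5 rose and 4 fell (18.9% and 17.1% of all genes), and with DB2313 10 rose and 2 fell (35.9% and 29.5%). The median at 72 h was 0.28, or 0.34 with groups at 0 at their bound, against 0.07 over all genes, and with DB2313 it was 0.94 against 0.14. PLIN4, another droplet coat protein, went from 1.56 to 36.9 CPM in MOLM-13, 0.804 to 5.63 CPM in MV-4-11 and 0.815 to 8.39 CPM in THP-1 at 72 h (3.46 ± 0.14 over the lines). It fell with PMA, by 1.91 on the log2 scale, but from 0.815 to 0.201 CPM, which are few reads. With DB2313 it rose to 9.27 CPM (3.40 ± 0.24). HILPDA, a droplet protein that inhibits triglyceride breakdown and is induced by low oxygen, fell in each line at both times, by 2.31 on the log2 scale over the lines at 72 h.

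CPT1A admits long-chain fatty acids to mitochondria for oxidation. It rose with BRM014 in MOLM-13 and not in the other lines. In MOLM-13 it went from 90.6 and 83.4 CPM with DMSO to 177 CPM in both libraries after 24 h and to 201 and 205 CPM after 72 h (0.90 ± 0.06 and 1.03 ± 0.06). In MV-4-11 it went from 196 and 205 CPM to 151 and 163 CPM and then 148 and 149 CPM (-0.42 ± 0.06 and -0.50 ± 0.06). In THP-1 it went from 171 and 172 CPM to 158 and 163 CPM and then 149 and 147 CPM (-0.15 ± 0.06, adjusted p = 0.0604, and -0.30 ± 0.06, 0.00035). The lowest DMSO level was that of MOLM-13, and after BRM014 it stood where MV-4-11 began. The lines differed at 24 h (1.3e-09) and 72 h (3.9e-11). With PMA CPT1A was at 113 CPM in both libraries (-0.52 ± 0.06, adjusted p = 1.6e-06), and with DB2313 at 162 and 176 CPM, around its DMSO level (-0.10 ± 0.06, 0.166). The THP-1 change at 24 h was called under 3 of 10 alternatives, DESeq2 among them (0.0067 to 0.228).

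ACADVL, the very long-chain acyl-CoA dehydrogenase of the mitochondrial pathway, had the highest level per kilobase of the 10 genes, 61.8 CPM per kilobase of exon over all libraries. In MOLM-13 it went from 198 and 217 CPM with DMSO to 362 and 372 CPM after 24 h and 700 and 677 CPM after 72 h (0.70 ± 0.08 and 1.54 ± 0.08). In MV-4-11 it was at 313 and 310 CPM with DMSO, 319 and 327 CPM after 24 h (-0.02 ± 0.08, adjusted p = 0.910) and 398 and 406 CPM after 72 h (0.31 ± 0.08, 0.0022). In THP-1 it went from 132 and 135 CPM to 219 and 225 CPM and then 276 and 277 CPM (0.69 ± 0.08 and 0.97 ± 0.08). It was highest in the same MOLM-13 libraries that had the most PPARG. The lines differed at 24 h (2.6e-05) and at 72 h (7.7e-08). With DB2313 ACADVL was at 228 and 232 CPM (0.71 ± 0.08, adjusted p = 1.6e-07), and with PMA at 132 and 158 CPM, of which the lower overlapped DMSO (0.20 ± 0.08, 0.0528, called under 3 of 10 alternatives with 0.00035 to 0.711).

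The carnitine shuttle and mitochondrial beta oxidation had 21 tested genes among 23, CPT1A and ACADVL included. At 24 h in the mean of lines 12 rose and 6 fell (28.9% and 27.1% of all genes). At 72 h 9 rose and 6 fell (34.9% and 30.4%), with a median of 0.08 against 0.07 over all genes. With PMA 5 rose and 3 fell (18.9% and 17.1% of all genes). With DB2313 6 rose and 10 fell (35.9% and 29.5%), with a median of -0.26 against 0.14 over all genes. SLC25A20, the carnitine and acylcarnitine carrier, rose in each line at both times (1.92 ± 0.06 over the lines at 72 h). HADH, which acts later in the cycle on shorter chains, fell in each line at both times, by 1.13 on the log2 scale over the lines at 72 h. ACADM, the medium-chain dehydrogenase, fell by 1.38 with DB2313. Of the 16 in peroxisomes, 5 were called higher and 3 lower at 24 h (28.9% and 27.1% of all genes). At 72 h 5 were called higher and 1 lower (34.9% and 30.4%), with a median of 0.08 at 72 h against 0.07 over all genes. With PMA 5 rose and 2 fell (18.9% and 17.1% of all genes), and 4 rose and 6 fell with DB2313 (35.9% and 29.5%).

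PDK4 is the kinase that shuts pyruvate dehydrogenase and so favours fatty acid over glucose oxidation. It was read in THP-1 alone. The 12 libraries of MOLM-13 and MV-4-11 held 0 reads, with or without BRM014. THP-1 had 1.25 and 1.19 CPM with DMSO, 1.57 and 3.06 CPM after 24 h and 4.86 and 4.29 CPM after 72 h of BRM014. The log2 change was 0.88 ± 0.36 at 24 h (adjusted p = 0.0531) and 1.82 ± 0.34 at 72 h (0.00039). Without the first 24 h library the 24 h change was 1.27 (0.0114, with 0.0114 to 0.559 over the alternatives). With PMA it was at 31.4 and 24.7 CPM (4.60 ± 0.34, adjusted p = 9.5e-08), and with DB2313 at 4.23 and 5.19 CPM (1.87 ± 0.34, 0.00025). The PMA libraries stood above all others, and those of DB2313 overlapped those of BRM014 at 72 h.

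The pyruvate dehydrogenase kinases and phosphatases and their complex made a list of 9 genes, PDK4 included. At 24 h in the mean of lines 3 rose and 5 fell (28.9% and 27.1% of all genes), and at 72 h 2 rose and 4 fell (34.9% and 30.4%). With PMA 1 rose and 2 fell (18.9% and 17.1%), and with DB2313 5 rose and 3 fell (35.9% and 29.5%). The median at 72 h was -0.06 against 0.07 over all genes. PDK1, a kinase of the family induced by low oxygen, fell from 44.8 to 9.95 CPM in MOLM-13, 96.2 to 12.7 CPM in MV-4-11 and 22.2 to 13.2 CPM in THP-1 at 72 h. The phosphatase PDP1, which opposes the kinases, rose in each line (1.26 ± 0.05 over the lines). The complex subunit DLAT fell in each line, by 1.23 over the lines.

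**Figure D4:**
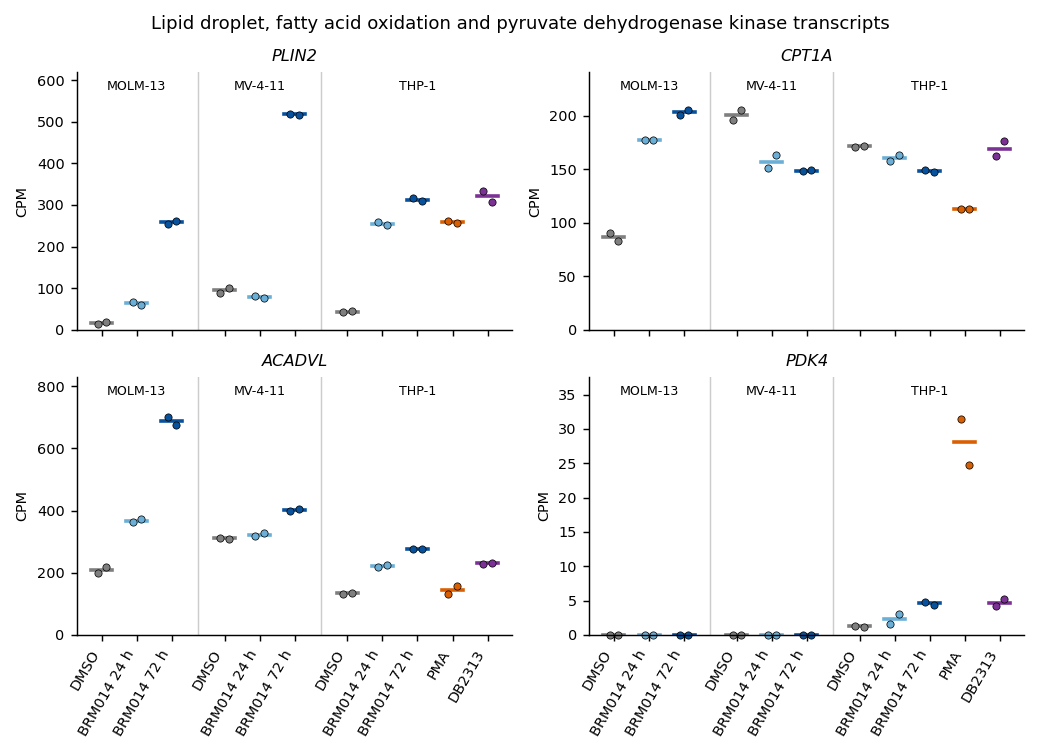
CPM of PLIN2, CPT1A, ACADVL and PDK4 in each of the 22 libraries, with points for libraries and bars for the mean of 2. PLIN2 rises to 255 to 518 CPM after 72 h of BRM014 in the 3 lines, CPT1A rises in MOLM-13 alone, and PDK4 has reads in THP-1 alone, up to 31.4 CPM with PMA.

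Among 14 tested genes of 16 others known as PPAR targets, 5 rose and 1 fell at 72 h in the mean of lines. Over all genes 34.9% rose and 30.4% fell at that time. At 24 h 6 rose and 4 fell (28.9% and 27.1% of all genes). With PMA 7 rose and 0 fell (18.9% and 17.1%), and with DB2313 11 rose and 1 fell (35.9% and 29.5%). The medians were 0.26 at 72 h (0.21 with groups at 0 at their bound) against 0.07 over all genes, 0.33 with PMA (0.36) against -0.02, and 0.98 with DB2313 against 0.14. CYP27A1, which makes a hydroxylated cholesterol, rose over the lines at 72 h (2.89 ± 0.28), from 0.707 to 8.87 CPM in MOLM-13, 0.0556 to 0.920 CPM in MV-4-11 and 4.25 to 11.0 CPM in THP-1. UCP2, a mitochondrial inner membrane carrier, fell in each line, from 163 to 22.4 CPM, 196 to 61.2 CPM and 164 to 28.7 CPM. Of 5 tested adipocyte markers, 2 rose and 1 fell at 72 h (34.9% and 30.4% of all genes). Their list summed to 13.5 to 16.4 CPM with DMSO and 189 CPM at 72 h in MOLM-13, 44.0 to 46.5 and 104 to 105 CPM in MV-4-11, and 6.95 to 8.51 and 29.6 to 35.2 CPM in THP-1. SLC2A4, the insulin-responsive glucose transporter, fell, from 1.49 to 0.224 CPM in MOLM-13. The resistin gene RETN was called higher over the lines at 72 h, but in MOLM-13 and THP-1 it stood at 0.755 CPM or less. In MV-4-11 it was at 37.5 CPM with DMSO, 22.8 CPM at 24 h and 73.5 CPM at 72 h, and made up most of the sum. CFD, the adipocyte and myeloid complement factor D, rose from 12.5 to 186 CPM in MOLM-13, 6.32 to 30.2 CPM in MV-4-11 and 2.59 to 26.0 CPM in THP-1.

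**Figure D5:**
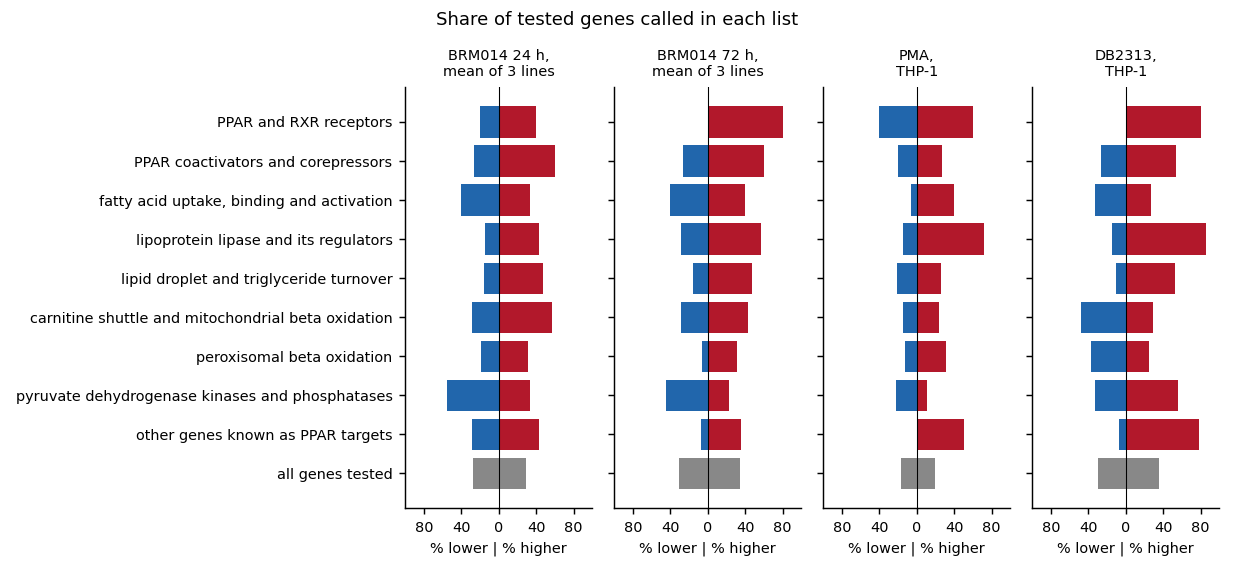
Share of the tested genes of each list that was higher (red, right) or lower (blue, left) at an adjusted p under 0.05, in percent, for BRM014 at 24 h and 72 h over the lines, PMA and DB2313, with all genes tested in grey. The lists are short, from 5 to 21 tested genes, and most bars lie on both sides of 0.

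The other genes differed in how their levels went with PPARG. Over the 11 group means on the log2 CPM scale, Pearson's r with PPARG was -0.75 for FABP5, 0.59 for PLIN2, 0.42 for ACADVL, 0.39 for ANGPTL4, 0.38 for PPARD, -0.29 for LPL and 0.07 for CPT1A. FABP4 and PDK4 had 0 reads in most groups and get no value, and LPL had almost none in MOLM-13. These are descriptions over groups that share lines and libraries. Among 13749 genes compared, the 5 most like PPARG were MARCH2 (r = 0.98), SNTB2 (0.96), MCEMP1 (0.96), TSPAN17 (0.96) and DGCR2 (0.96). Over the 9 groups with DMSO or BRM014 they were NR3C1 (0.99), HHAT (0.98), MARCH2 (0.98), KREMEN1 (0.98) and UHRF1BP1L (0.98). NR3C1, the glucocorticoid receptor, went from 62.4 to 150 CPM in MOLM-13, 55.3 to 136 CPM in MV-4-11 and 82.2 to 157 CPM in THP-1 between DMSO and 72 h. None of the other 9 genes was among these. By Spearman's rho, 1 of the 5 genes stayed among the 5 most like PPARG, over 11 groups and over 9.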

How the data were processed

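Polyadenylated RNA of 22 libraries was sequenced, and the authors deposited counts of reads per gene symbol, 1 library per file, without normalization. HISAT2 2.1.0, HTSeq, DESeq2 and hg38 are listed, per the submitters' processing notes. The gene annotation and the strand setting are not given in the sources used here. Rows naming no gene entered neither library sizes nor tests. The no-feature row held 12% to 19.2% of reads (median 15.1%).

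The 10 genes, the lists of related genes and the tests were chosen with earlier results of these data known. Levels are CPM, counts over all reads in genes. One fit in edgeR 4.0.16 (R 4.3.3) held all 22 libraries with a coefficient per group, filterByExpr with a minimum count of 10 (16794 genes left), TMM scaling, the quasi-likelihood F test and Benjamini-Hochberg adjustment over all genes tested, with a threshold of 0.05. Values after ± are standard errors of log2 changes, taken from the F test of that fit, unless given as SD. They rest on a spread estimated over all 22 libraries, because a group has only 2. For a pair that differed more than the others, such as PMA, they and the p-values may be too small. A fold against a group at 0 is a bound, taken with 3 counts for the whole group, and against 1 to 3 counts a ratio with an exact 95% counting interval. Without molecular identifiers, reads may repeat a molecule. The scripts were tested on simulated data. From each list the text draws on the called genes with the largest changes, up to 3 at 72 h over the lines and up to 2 with PMA and with DB2313, the 10 genes left out of the ranking. Likeness to PPARG is Pearson's r of log2 CPM (prior count 2) over group means, for genes with a mean of at least 1 CPM. Alternatives were scaling by library size alone or by relative log expression, no filter on low counts, DESeq2 1.42.0, only the groups compared, a replicate block and each library left out in turn, a prior count of 0.5 or Spearman's rho for likeness, and the longest transcript for length.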

Additional observations from a re-analysis of the deposited data

Results flagged for a closer look

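The effect of BRM014 differed between MOLM-13, MV-4-11 and THP-1 for most of the 10 genes, by an F test of both differences in edgeR with adjustment over all genes. At 24 h the adjusted p was 0.011 for PPARG, 1.4e-09 for PPARD, 1.7e-05 for LPL, 3.4e-06 for ANGPTL4, 3.6e-12 for PLIN2, 1.3e-09 for CPT1A and 2.6e-05 for ACADVL. At 72 h it was 2.7e-08 for PPARG, 2.3e-11 for PPARD, 1.6e-10 for FABP5, 4.1e-10 for LPL, 7.4e-09 for ANGPTL4, 9.6e-08 for PLIN2, 3.9e-11 for CPT1A and 7.7e-08 for ACADVL. PPARD and CPT1A changed in opposite directions between MOLM-13 and another line at 72 h, and PLIN2 between MV-4-11 and the other lines at 24 h. Of all genes tested, 43.5% differed between lines at 24 h and 52.9% at 72 h, so that such a difference was common in these libraries. The value for LPL includes MOLM-13, which held 1 read of it.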

How the results depend on the processing

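With 2 libraries a group, calls near the threshold moved. Of 1379 values of single genes under another setting, 1345 kept their direction and side of the threshold, 18 were no longer called, 12 were newly called and 4 changed sign. The sign changed for uncalled values only. ANGPTL4 in MOLM-13 ranged from -0.416 to 0.0436 at 24 h, above 0 without the first DMSO library, and from -0.122 to 0.361 at 72 h, below 0 without the first BRM014 library or, at -0.0979, without the second DMSO library. ACADVL in MV-4-11 at 24 h was at 0.0513 with library size alone, which also called PPARD there (0.254, adjusted p = 0.0363 in edgeR). The cause was not tested. The number of the 10 genes called stayed within 1.5 times of the reported one in all 14 comparisons. It ranged over 7 to 10 for PMA, reported as 9, and over 7 to 9 for DB2313, reported as 8. Leaving out libraries gave 4 to 5 for MV-4-11 at 24 h and 7 to 8 at 72 h, and 5 to 7 for the 24 h mean of lines.

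Scaling by library size alone moved the median log2 change of all genes from 0.07 to 0.18 for the 72 h mean of lines and from 0.00 to 0.16 for MOLM-13 at 72 h, and with it CPT1A was called at 72 h over the lines (0.19). It moved the share of calls that were higher from 49.1% to 59.3% for MOLM-13 at 24 h and from 52.5% to 41.0% for PMA. With only the groups compared, PMA gave 3016 calls over all genes in place of 6057, of which 66.1% were higher.

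Replicate numbers did not pair the libraries throughout: deviations of equal numbers correlated at -0.37 to 0.28 over 16 pairs of groups (median -0.04). The correlation was over 0.1 in 3 of the 16, highest between MOLM-13 with DMSO and at 24 h of BRM014. These values do not settle whether some groups were paired. The fit with the replicate block called 6 of the 10 genes at 24 h and 7 at 72 h over the lines, as without it, and 9 with PMA and 8 with DB2313. The order of genes by level per length kept 5 of 10 places with the longest transcript. Changes of genes under about 1 CPM, such as ANGPTL4 outside THP-1, were limited by depth.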
